A study of Mus musculus with 18 samples.

Results

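Of the 6788 CHIP-seq peaks of CHD8 on chromosomes 1 to 19 in regulatory T cells (Tregs), 1017 or 15.0% shared no base with any of the 81800 ATAC peaks, and these CHD8 peaks outside open chromatin are described here. The other 5771 CHD8 peaks on these chromosomes share 1 base or more with an ATAC peak and serve as the comparison. The rule used the positions of the peaks and not their signal. CHD8 is an ATP-dependent chromatin remodeler of the CHD family that is known to sit mainly at active promoters, where nucleosomes are few and the DNA is open. ATAC-seq maps such open DNA through the insertion of adapters by a transposase, whereas CHIP-seq recovers the DNA that an antibody pulls down with a protein, whether the DNA is open or packed. Regulatory T cells are the Foxp3-expressing CD4+ cells that restrain other immune cells.

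CHIP-seq used an anti-CHD8 antibody on splenic CD4+CD25+ Tregs of 2 mice, named 1G and 2G, and gives 1 value per mouse at each peak. ATAC-seq was carried out on sorted YFP+ splenic Tregs of 1 WT mouse (WT) and 2 Chd8-/- mice (KO1 and KO2). The labels give CHD8flox/floxFoxp3YFP-Cre/+ for the CHIP and the WT mice and CHD8Flox/FloxFoxp3YFP-Cre for the Chd8-/- mice, with Poly IC injection for all. The study instead describes its WT mice as Chd8+/+ with the Foxp3YFP-Cre, and its methods name C57B6/J mice for CHIP-seq. Which of these holds is not settled here, so the WT mice may carry the floxed allele and a copy of the Cre. The Cre is driven by Foxp3, so deletion is limited to cells that have expressed it, and Tregs are such cells. If the labels hold, Chd8 could be deleted in the WT and CHIP cells too. Chd8-/- against WT would then not compare cells without and with CHD8. Chd8 RNA, given below from the RNA libraries, was lower in Chd8-/- than in WT. The labels list a pair of libraries for each mouse, and how they were joined into 1 column is not given in the sources used here. The mice are listed in the study as a male and a female for CHIP-seq, without saying which is 1G. The methods give an age of 5 to 7 weeks for the Chd8-/- mice and their WT littermates. Values for IgG were not analysed here, so the background of the pulldown at these peaks is unknown.

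The reads behind each CHIP value were recovered from the deposited values, which are whole multiples of a step per read. They came to 549862 reads in peaks for mouse 1G and 754775 for mouse 2G. The median CHD8 peak outside open chromatin held 56 reads in 1G and 65 reads in 2G, and the median of the other peaks was 73 and 100 reads. Reads carry no molecular identifiers, so intervals from them cover counting error only. The RNA libraries of sorted Tregs, which are not the CHIP samples, held all 6 Treg markers examined (Foxp3, Il2ra, Ctla4, Ikzf2, Cd4 and Cd3e) at 46.7 TPM or more in every library. The summed levels of markers of other cells ran, over the other 3 libraries, from 12.1 to 27.4 TPM for the B cell genes Ms4a1 and Cd79a and from 20.4 to 86.3 TPM for the myeloid genes Lyz2, Itgam and Csf1r, and stood at 126.7 and 1384 TPM in the Chd8-/- library K2. Lyz2 alone made up 1360.3 TPM there, against 20 to 77.1 TPM in the others. The sum over Cd8a, Cd8b1, Nkg7 and Klrb1c ran from 52.7 to 93.4 TPM over all 4 libraries, with Klrb1c at 0 in K2. Chd8 itself had 24.7 and 27.6 TPM in the WT libraries and 14.9 and 11.4 TPM in the Chd8-/- libraries.

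CHD8 peaks outside open chromatin carried less CHD8 signal than the other CHD8 peaks in both mice. In mouse 1G their median was 122.8 TPM (TPM, here the reads per length of a peak, scaled to the same sum over all peaks in each mouse), against 143.3 TPM for the other peaks. In mouse 2G it was 103.2 TPM against 139.8 TPM. The median was thus 0.857 times that of the other peaks in 1G and 0.738 times in 2G. On the log2(TPM + 1) scale the difference was -0.22 in 1G and -0.43 in 2G, with a mean of -0.33 ± 0.15 (SD, n = 2). Both mice moved the same way, but an exact two-sided permutation test over 2 mice cannot go below p = 0.5, and peaks are not replicates, so no test supports the difference.

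The lower level was seen on each chromosome. The median of the peaks outside open chromatin was below that of the other peaks on 19 of 19 chromosomes in 1G and on 19 of 19 in 2G. It ranged from 111.0 to 133.8 TPM over chromosomes in 1G, where the other peaks had 139.3 to 150.6 TPM. In 2G the range was 97.2 to 112 TPM against 131.9 to 143.7 TPM. The ranges of the chromosome medians therefore did not overlap in either mouse. The share of CHD8 peaks that lay outside open chromatin varied more between chromosomes, from 9.21% on chromosome 17 to 20.8% on chromosome 7.

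The sets overlapped widely at the level of single peaks. In 1G the middle 50% of the peaks outside open chromatin ran from 95.6 to 147.7 TPM and that of the other peaks from 123.2 to 166.8 TPM. In 2G these ranges were 85.0 to 122 TPM and 116.3 to 171.8 TPM. Of the 1017 peaks, 693 or 68.1% lay below the median of the other peaks in both mice, and 83 or 8.16% lay above it in both. The set made up 15.0% of the autosomal CHD8 peaks and 13.8% of their bases, but held 11.1% of their reads in 1G and 9.40% in 2G. Since TPM over peaks has a fixed sum in each mouse, a lower share here goes with a higher share at the other peaks.

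**Figure D1:**
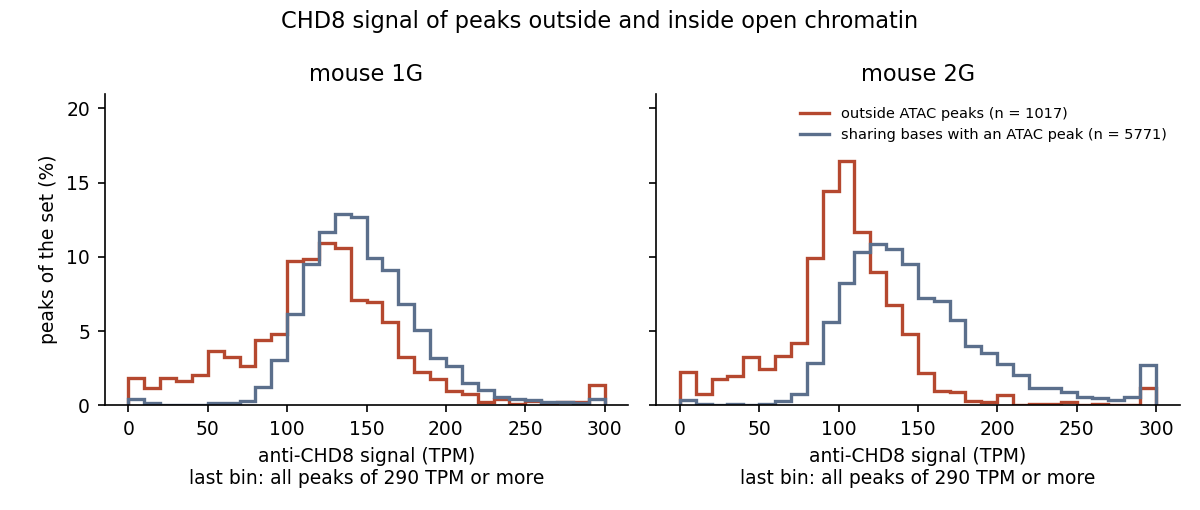
Share of CHD8 peaks (percent of each set) by anti-CHD8 signal in bins of 10 TPM, for mouse 1G on the left and mouse 2G on the right, with 1017 peaks outside ATAC peaks in red and 5771 peaks that share bases with an ATAC peak in blue. The red distribution lies to the left in both mice, with medians of 122.8 and 103.2 TPM against 143.3 and 139.8 TPM, and has a tail toward 0.

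Weak peaks were more frequent outside open chromatin. A mean of both mice under 75 TPM was found for 172 peaks or 16.9% there, against 49 or 0.849% of the other peaks. Of these 172 peaks, 111 or 64.5% lay over 50 kb from the nearest ATAC peak. Fewer than 20 reads in at least 1 mouse were found at 60 peaks or 5.90% outside open chromatin and at 37 or 0.641% of the other peaks. Among the 60 peaks, 15 had as nearest CHD8 peak another one with fewer than 20 reads, against 14 of the remaining 957. Low peaks lay beside low peaks among the other CHD8 peaks too, at 27 of 37, so this was not particular to peaks outside open chromatin.

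In mouse 1G, 9 of the 1017 peaks outside open chromatin had 0 reads, and 6 of them also had 0 reads in mouse 2G. The other 3 had 1 read in 2G. A count of 0 allows an expected count of up to 3 reads by the one-sided 95% rule, or 3.69 by the two-sided exact Poisson interval used for the other counts. The authors kept only peaks called in more than 1 replicate, so these counts cannot tell whether CHD8 was bound at these peaks. Of the 9 peaks, 3 lay on chromosome 8 between 55576042 and 55817380, 2 on chromosome 3 between 92126307 and 92161436, and 2 on chromosome 6 between 47632923 and 47720643. The other two were chr7:32455010-32455512 and chr14:69846278-69847008. Positions are those of the mm39 build that the methods name, as the peak list gives them. Among the other CHD8 peaks, 16 had 0 reads in 1G and 14 had 0 in 2G. How a peak without reads entered the list was not tested.

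At the other end, 28 peaks or 2.75% outside open chromatin had a mean of 200 TPM or more, against 509 or 8.82% of the other peaks. The strongest was chr18:3542311-3542658, with 1349.6 TPM in 1G and 1200.9 TPM in 2G, from 381 reads (exact Poisson 95% interval 344 to 421) and 460 reads (419 to 504). It exceeded the strongest of the other CHD8 peaks, chr4:7391637-7391902, which had 1071.4 and 837.6 TPM. The nearest ATAC peak lay 33947 bp away and had 28.2, 29.2 and 27.8 TPM in WT, KO1 and KO2.

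Next in strength were chr11:3140617-3140800, with 832.9 and 935.6 TPM in 1G and 2G, and chr3:37200572-37200775, with 617.6 and 723 TPM. These 3 peaks had the same order in both mice. The fourth to the tenth were lower, at no more than 519.6 TPM in either mouse. Peak chr5:33356296-33356516 had 519.6 TPM in 1G and 325.3 in 2G. Peak chr10:57982832-57983052 had 480.5 and 313 TPM. Both of these were over 1.5 times higher in 1G. Peak chr7:10018887-10019088 had 397.5 and 311 TPM. Peak chr15:82847435-82847918 had 343.6 and 363.9 TPM. These values differed less between the mice. The last 3 of the 10, chr1:88182554-88182777, chr4:65042686-65043335 and chr9:123721211-123721786, had 330.7, 333.3 and 320.6 TPM in 1G and 341.2, 325.2 and 337.2 TPM in 2G. Of the 10 strongest peaks, 6 were less than 300 bp wide. Their gaps to the nearest ATAC peak ranged from 316 bp at the chromosome 9 peak to 464835 bp at the chromosome 4 peak.

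CHD8 peaks outside open chromatin were somewhat narrower. Their median width was 603 bp, with the middle 50% from 483 to 739 bp, against 647 bp and 525 to 804 bp for the other peaks. The median was smaller on 16 of 19 chromosomes. The list has 1 width per peak, joined over the mice, so the difference of 44 bp has no replicate. The narrowest peaks had the highest median signal in both sets. Among peaks of up to 300 bp, the 31 outside open chromatin had medians of 210.7 TPM in 1G and 175.5 in 2G, and the 30 other peaks had 217.1 and 182.9 TPM.

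The gap in signal was larger at wider peaks. Between 300 and 400 bp the medians were 156.8 TPM outside open chromatin and 165.5 TPM at the other peaks in 1G, and 132.3 and 144.4 TPM in 2G. Between 800 and 1000 bp they were 106.5 and 145.2 TPM in 1G and 93.8 and 145.2 TPM in 2G. Outside open chromatin, signal fell with width up to 700 bp and stayed near that level beyond, whereas at the other peaks it was higher again above 700 bp. When only peaks of 300 to 600 bp were compared, 472 against 2288, the medians were 132.8 and 144.5 TPM in 1G and 108.9 and 137.0 TPM in 2G.

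Wide peaks outside open chromatin were not strong ones. The widest was chr18:78739655-78741153, 1498 bp long, with 7.4 TPM in 1G and 6.7 in 2G from 9 and 11 reads. The next, chr12:91440193-91441658, had 32.7 and 49.5 TPM over 1465 bp. The fourth, chr1:130527764-130529141, had 20.5 and 38.2 TPM over 1377 bp. These 3 peaks lay far below the median of the set in both mice. The third and the fifth, chr9:111140477-111141868 and chr7:45482215-45483477, were near the median of the set or above it. They had 117.5 and 120.5 TPM and 165.6 and 119.2 TPM, and lay 1496 and 1648 bp from an ATAC peak, whereas the other three lay 32288 to 109571 bp from one.

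The mice differed more at CHD8 peaks outside open chromatin, mainly through a shift toward 1G. The signal was lower in 2G than in 1G at 743 or 73.1% of them, with a median log2 ratio of 2G over 1G of -0.22, and at 2937 or 50.9% of the other peaks, with a median of -0.0073. The median ratio was lower than that of the other peaks on 19 of 19 chromosomes, from -0.41 on chromosome 7 to -0.12. Over chromosomes, the median of the other peaks ran from -0.070 to 0.046. A ratio of 1.5 or more in either direction was reached by 189 peaks or 18.6%, against 11.0% of the other peaks and 12.2% of all 6788. The difference between sets lay in the peaks higher in 1G. These were 154 or 15.1%, against 6.81% of all CHD8 peaks, while 35 or 3.44% were higher in 2G, against 5.35% of all.

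Around that shift, the mice spread to a like extent in both sets. Among peaks with 20 reads or more in each mouse, the SD of the log2 ratio was 0.35 over 957 peaks outside open chromatin and 0.37 over 5734 other peaks. Counting error alone would give 0.27 and 0.23. With ratios taken from the median of each set, a comparison chosen after the data were seen, 9.30% of these peaks outside open chromatin and 11.1% of the others differed by 1.5 times or more. Over all peaks, those with few reads included, the shares were 12.1% and 11.1%, in the other order. Across peaks, the log2 values of the mice correlated with r = 0.915 outside open chromatin and r = 0.798 at the others. With 20 reads or more in each mouse, r was 0.809 and 0.589. These correlations describe peaks of the same pair of mice, and the wider range of values outside open chromatin enters them. The authors removed peaks seen in only 1 replicate, which may enter them too.

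The direction of the shift depended on the strength of the peak at the other peaks and less so outside open chromatin. Between 100 and 125 TPM the median log2 ratio of 2G over 1G was -0.24 for 356 peaks outside open chromatin and -0.11 for 1322 other peaks. Between 150 and 200 TPM it was -0.34 for 93 peaks and 0.058 for 1804. At 200 TPM or more it was -0.25 for 28 peaks and 0.33 for 509. By the class medians, CHD8 peaks of 150 TPM or more thus leaned toward 1G outside open chromatin and toward 2G inside it. This did not hold at every peak. At 200 TPM or more, 75% of the peaks outside were lower in 2G, against 18.1% of the other peaks. Among the strongest peaks outside, chr11:3140617-3140800 and chr3:37200572-37200775 were higher in 2G. The sets also differed in width at 200 TPM or more, with medians of 290 bp outside and 697 bp inside. In the class of 150 to 200 TPM, 93.5% of the peaks outside were lower in 2G, against 43.6% of the other peaks. Under 75 TPM the medians were near 0 in both sets, at -0.040 and 0. Whether sex, pulldown or sequencing accounts for the difference between the mice cannot be told apart with 1 value per mouse.

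**Figure D2:**
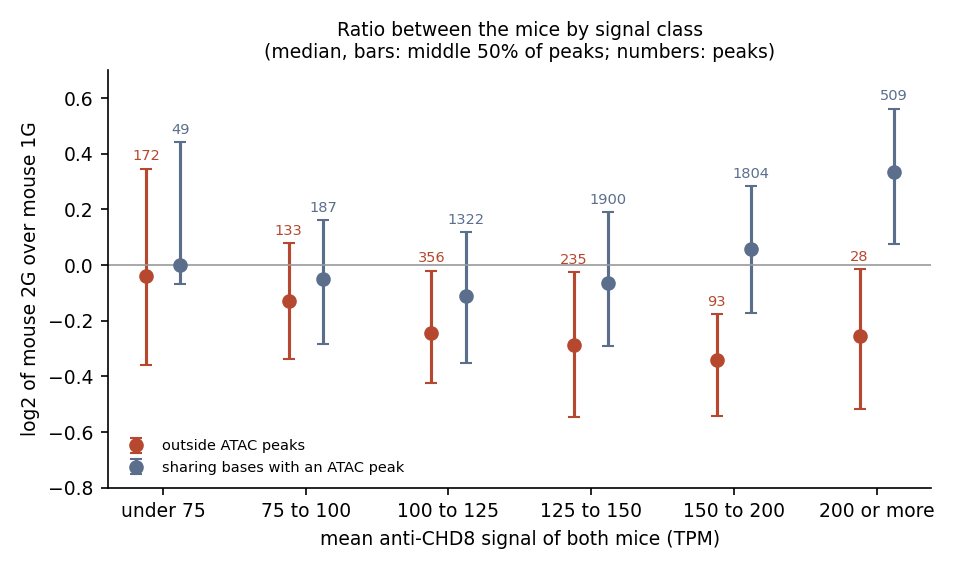
Log2 ratio of anti-CHD8 signal in mouse 2G over mouse 1G (vertical axis) by class of mean TPM of both mice (horizontal axis), for CHD8 peaks outside ATAC peaks in red and sharing bases with one in blue, as the median with bars over the middle 50% of peaks and the number of peaks above. The red medians stay below 0 in each class and reach -0.34, while the blue medians rise to 0.33 at 200 TPM or more.

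The largest ratios between the mice were at peaks with few reads. Among peaks with 20 reads or more in both mice together, the first was chr8:66163257-66164234, with 2.5 TPM in 1G and 16.7 in 2G. These values rest on 2 reads (exact Poisson 95% interval 0.242 to 7.22) and 18 reads (10.7 to 28.4). The next was chr10:106042428-106043375, with 7.8 and 23.9 TPM from 6 and 25 reads. Both were higher in 2G, against the shift of the set. The other three were higher in 1G, and chr3:44054041-44054734 had the largest ratio among them, with 28.4 TPM in 1G and 10.5 in 2G from 16 and 8 reads. Peaks chr18:76496680-76497801 and chr10:58060225-58060632 had 21.9 and 57.4 TPM in 1G and 8.9 and 24.5 TPM in 2G. All of these 5 peaks had fewer than 20 reads in at least 1 mouse.

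Most CHD8 peaks outside open chromatin were far from it. The median gap to the nearest ATAC peak was 28760 bp, with the middle 50% from 6673 to 136283 bp. No more than 46 peaks or 4.52% lay within 500 bp of an ATAC peak, 91 between 500 bp and 2 kb, 179 between 2 and 10 kb, 286 between 10 and 50 kb, and 415 or 40.8% beyond 50 kb. Within 50 kb on either side the median number of ATAC peaks was 1, against 8 around the other CHD8 peaks, which have at least 1 through the rule itself, so the contrast is a description of the rule and no finding.

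Signal was lower the farther the peak lay from open chromatin. In 1G the median fell from 155.2 TPM within 500 bp to 145.4, 129.8 and 124.4 TPM in the next classes and to 108.7 TPM beyond 50 kb. In 2G it went from 124.7 TPM to 112.2, 107.9, 103.4 and 95.1 TPM. The order was the same in both mice. Peaks within 500 bp of an ATAC peak had a median above that of the other CHD8 peaks in 1G (155.2 against 143.3 TPM) and below it in 2G (124.7 against 139.8 TPM). Width ran the other way, from a median of 477.5 bp within 500 bp to 641 bp beyond 50 kb. Among peaks of 300 to 600 bp alone, the medians still went from 163.0 TPM for 27 peaks within 500 bp to 121.6 TPM for 159 peaks beyond 50 kb in 1G, and from 133.6 to 105.9 TPM in 2G, where the classes between 2 and 50 kb did not follow the order (109.5 and 110.3 TPM). The median log2 ratio of 2G over 1G was -0.29 within 500 bp and -0.16 beyond 50 kb.

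The same held along the strength of open chromatin at the other CHD8 peaks. Where the ATAC peak that shares bases with the CHD8 peak had less than 5 TPM in the WT mouse, 499 CHD8 peaks had medians of 128.6 TPM in 1G and 108.5 in 2G. These values were near those of the peaks outside open chromatin, 122.8 and 103.2 TPM. The median log2 ratio of 2G over 1G was -0.23 at these weakly open peaks and -0.22 outside. At 10 to 20 TPM of ATAC signal, 768 CHD8 peaks had 139.6 and 125.9 TPM. At 40 TPM or more, 1288 CHD8 peaks had 146.1 and 155.1 TPM, with a median log2 ratio of 0.11. The levels in 2G thus spanned a wider range over these classes than in 1G, and the lower signal and the shift between the mice were shared by peaks in weakly open chromatin.

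**Figure D3:**
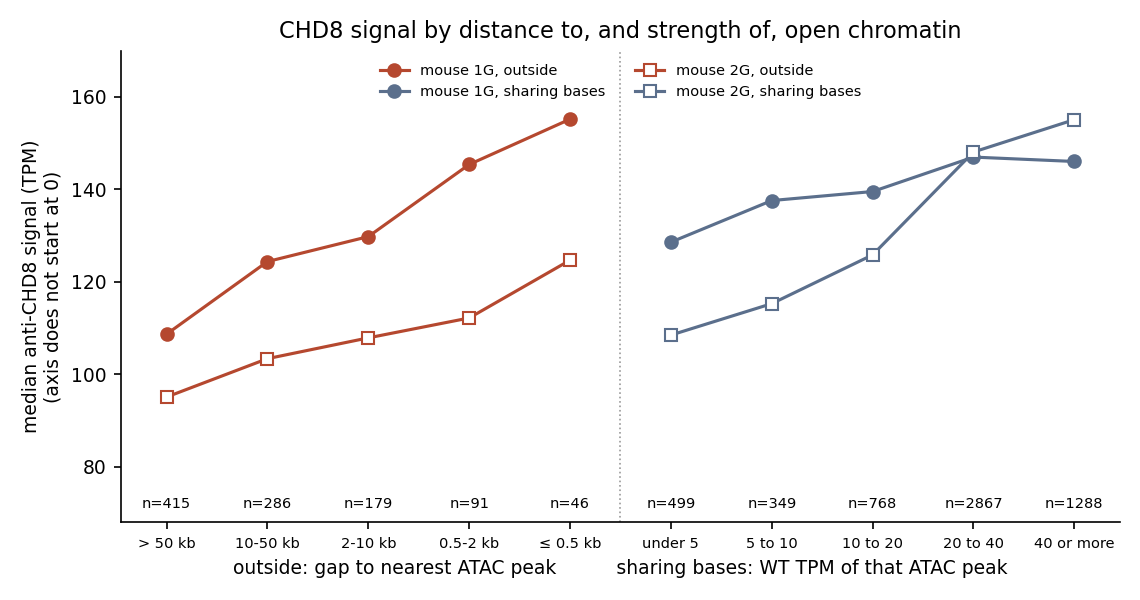
Median anti-CHD8 signal in TPM (vertical axis, not from 0) in mouse 1G (filled circles) and 2G (open squares), for CHD8 peaks outside ATAC peaks by gap to the nearest ATAC peak (left, red) and for those sharing bases with an ATAC peak by its WT signal (right, blue), with the number of peaks below. Signal rises from 108.7 and 95.1 TPM beyond 50 kb to 155.2 and 124.7 TPM within 500 bp, and from 128.6 and 108.5 TPM at weakly open sites to 146.1 and 155.1 TPM at the most open ones.

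At the edge of the rule, peaks on either side had like values. The nearest peaks outside open chromatin were chr17:10537315-10537642, 7 bp from an ATAC peak, with 169.1 TPM in 1G and 166.2 in 2G, chr19:5792216-5792659 at 21 bp, with 158.2 and 143.1 TPM, and chr2:165075875-165076545 at 25 bp, with 203.6 and 144.7 TPM. The ATAC peak beside the first had 30.2, 33.3 and 31.7 TPM in WT, KO1 and KO2, and those beside the second and the third had no more than 4.0 TPM in any mouse. Just inside were chr1:119348295-119348803, which shared 1 base with an ATAC peak and had 142.8 and 135.5 TPM, chr4:114263093-114263597, which shared 16 bases and had 195.1 and 120.4 TPM, and chr16:10602119-10602748, which shared 17 bases and had 138.7 and 138.3 TPM.

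The peaks farthest from open chromatin lay in long stretches without ATAC peaks. The farthest was chr3:45335382-45335811, 3637 kb from the nearest ATAC peak, with 174.8 TPM in 1G and 122.5 TPM in 2G from 61 and 58 reads. Both values were above the medians of the set. In the same stretch lay chr3:44146308-44147202, with 115.5 and 87.1 TPM at 2448 kb, and the weak peak chr3:44054041-44054734 described above, at 2356 kb. The other two were chr5:83054697-83055327, with 113.2 and 97.8 TPM at 2406 kb, and chr3:25022574-25023207, with 112.6 and 70.1 TPM at 2098 kb. All of these except the first were below the medians of the set in both mice.

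CHD8 peaks outside open chromatin were more isolated from other CHD8 peaks. The median gap to the nearest other CHD8 peak was 132278 bp, against 62168 bp for the other peaks, and it was larger on 19 of 19 chromosomes. Another CHD8 peak lay within 10 kb for 69 or 6.78% and within 50 kb for 278 or 27.3%, against 10.9% and 42.6% of the other peaks. The distance followed the number of ATAC peaks around. With 10 or more ATAC peaks within 50 kb, 107 peaks outside open chromatin had a median gap of 21899 bp, against 40054 bp for 2260 other peaks. With 5 to 9, 174 peaks had 47709 bp, against 67045 bp for 2257 other peaks. With 1 to 4 ATAC peaks, 321 peaks had 112700 bp, against 108980 bp for 1254 other peaks. By these classes, the larger overall gap was turned around with 5 or more ATAC peaks nearby and was small with 1 to 4. The counts include the ATAC peak that each of the other CHD8 peaks shares bases with, so the classes are not alike between the sets. The 415 peaks with no ATAC peak within 50 kb, which have no counterpart among the other peaks, had a median gap of 304362 bp.

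**Figure D4:**
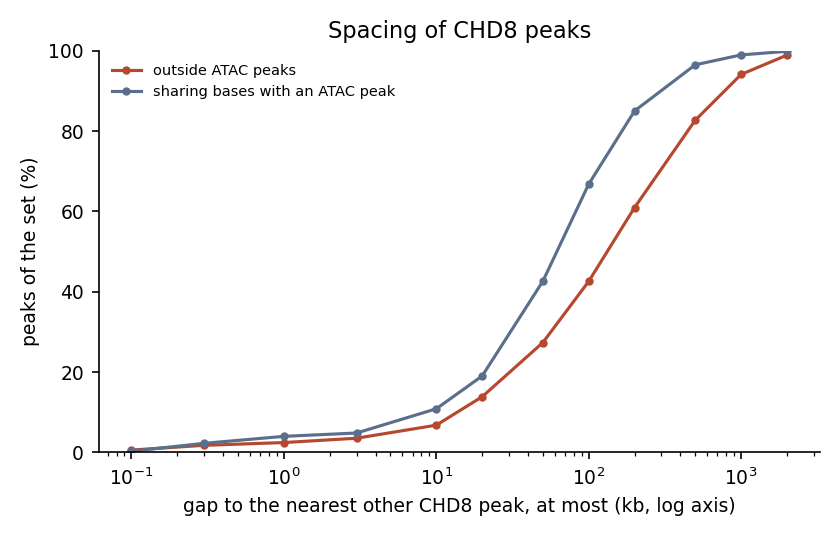
Cumulative share of CHD8 peaks (percent of each set, vertical axis) whose nearest other CHD8 peak lies within the gap on the horizontal axis (kb, log axis), for 1017 peaks outside ATAC peaks in red and 5771 peaks sharing bases with one in blue. At 50 kb the red line stands at 27.3% and the blue line at 42.6%.

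The nearest CHD8 peak was itself outside open chromatin for 293 or 28.8% of the peaks outside and for 560 or 9.70% of the other peaks, where such peaks make up 15.0% of all. Within 10 kb of each other, peaks outside open chromatin formed 17 pairs and no larger group, while 983 stood alone. The closest pair spanned 747 bp on chromosome 11, with chr11:100849377-100849776 at 144.8 TPM in 1G and 118.1 in 2G and chr11:100849816-100850124 at 167.6 and 138.2 TPM. They lay 40 bp apart, and both were stronger in 1G. In 2 of the 17 pairs, chr1:89507770-89508676 with its neighbour and chr8:123062864-123063442 with its neighbour, the peaks share bases, so the list holds these sites as 2 peaks each. In 15 of the 17 pairs the mean signals of the pair differed by at most 1.56 times, and the other 2 pairs hold a peak without reads.

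The ATAC peaks nearest to these CHD8 peaks were weak. The 1017 CHD8 peaks had 939 different nearest ATAC peaks, with medians of 5.0 TPM in WT, 5.6 in KO1 and 5.7 in KO2. The medians over all 79800 ATAC peaks of chromosomes 1 to 19 were 8.3, 8.7 and 8.3 TPM. For the 5708 ATAC peaks that the other CHD8 peaks share bases with, counting 1 for each CHD8 peak, they were 28.6, 26.8 and 26.8 TPM. Both Chd8-/- mice stood above the WT mouse in the median of the first set and below it in the third.

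In Chd8-/- Tregs, 268 of the 939 ATAC peaks or 28.5% were higher by 0.4 or more on the log2(TPM + 0.84) scale, as the mean of KO1 and KO2 against WT, where 17.2% of all ATAC peaks were. Lower by as much were 50 or 5.32%, where 10% of all were. The median log2 difference was 0.12, with 0.12 in KO1 and 0.15 in KO2, against 0.012 over all ATAC peaks. Both mice past 0.4 upward were found at 183 or 19.5%, against 12.7% of all. KO1 and KO2 are compared with the same WT mouse. With 1 WT mouse there is no test between genotypes, and these are counts past a fold without replicate check in WT.

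Weak ATAC peaks passed the cutoff upward more often anywhere, so the shares were also taken by level. Under 5 TPM in the mean of the 3 mice, 42.5% of 416 ATAC peaks nearest to a CHD8 peak outside open chromatin were higher, against 30.9% of 18410 other ATAC peaks. From 5 to 8 TPM the shares were 24.8% of 270 and 19.9% of 18809. From 8 to 15 TPM they were 14.5% of 152 and 14.5% of 20554, and at 15 TPM or more 1.98% of 101 and 5.02% of 21088. An upward excess was thus present below 8 TPM and absent above. Downward, the shares were lower than elsewhere in each class below 15 TPM, with 6.01% against 15.9% under 5 TPM. At 15 TPM or more they were alike, at 2.97% of 101 and 3.43% of 21088. The upward share rests on the small value added to each TPM: with the median ATAC value of 8.4 TPM added in its place, 2.77% of the 939 peaks and 3.29% of all ATAC peaks were higher.

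**Figure D5:**
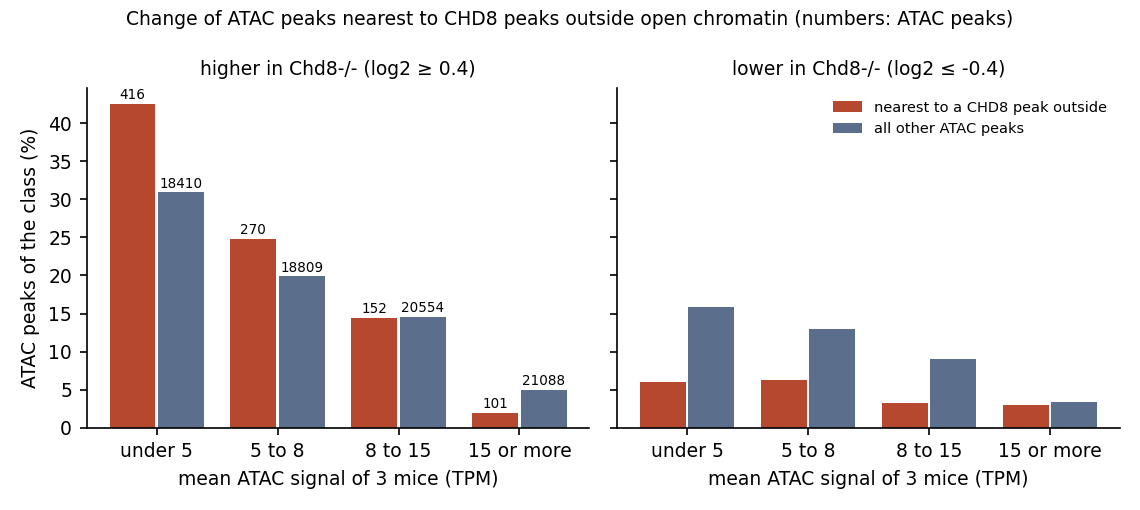
Share of ATAC peaks (percent of each class, bars from 0) that were higher (left) or lower (right) by a log2 difference of 0.4 in Chd8-/- Tregs, by mean ATAC signal of 3 mice in TPM, for the 939 ATAC peaks nearest to CHD8 peaks outside open chromatin in red and all other ATAC peaks in blue, with the number of peaks in each class on the left. Under 5 TPM the red bar reaches 42.5% upward and 6.01% downward, against 30.9% and 15.9% in blue.

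Of the ATAC peaks nearest to the 10 strongest CHD8 peaks outside open chromatin, 4 were lower in Chd8-/- Tregs by 0.4 or more on the log2 scale, 1 was higher and 5 lay between, with 7 of the 10 below 0. Over all ATAC peaks of chromosomes 1 to 19, 10% were lower and 17.2% higher by as much. With 10 peaks and 1 WT mouse, these counts are a description only. Beside chr11:3140617-3140800 the ATAC peak had 57.2 TPM in WT and 25.8 and 36.7 TPM in KO1 and KO2. Beside chr3:37200572-37200775 it had 8.7 TPM in WT and 12.3 and 11.6 TPM in KO1 and KO2. The first was the most lowered of the 10, with a log2 difference of -0.88, and the second was the one that was higher, at 0.42. Among the 4 lower ATAC peaks, the one beside chr10:57982832-57983052 had only 2 TPM in WT and 1 and 1.6 TPM in KO1 and KO2. The one nearest to chr7:10018887-10019088 lay 195761 bp away.

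The study assigns 2 of the 1017 peaks to genes among its named targets. Peak chr2:35471526-35472187, assigned to Hspa5, which encodes the chaperone BiP of the endoplasmic reticulum, had 145.0 TPM in 1G and 97.3 TPM in 2G, from 78 and 71 reads. It lay 31876 bp from an ATAC peak that had 3.9 TPM in WT and 6.6 and 8.2 TPM in KO1 and KO2. Peak chr11:41780327-41780856, assigned to Ccng1, a cyclin G gene that p53 is known to activate, had 86.0 and 114.7 TPM from 37 and 67 reads. It was higher in 2G, unlike most of the set, and lay 1114 kb from the nearest ATAC peak. The distances of these peaks to the genes were not analysed here. The assignments are therefore those of the study alone, and whether either peak lies near the start of its gene is unknown.

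The RNA of both genes was higher in the Chd8-/- libraries. Hspa5 had 255.6 and 246.9 TPM in the WT libraries and 462.0 and 413.1 TPM in the Chd8-/- libraries K1 and K2. Ccng1 had 211.1 and 223 TPM in WT and 451.6 and 335.3 TPM in K1 and K2. The groups did not overlap for either gene, and 14.8% of 15242 genes with 1 TPM or more in at least 2 libraries had both Chd8-/- libraries above both WT libraries. Library K2 is the one with high Lyz2, and in K1, with 20 TPM of Lyz2, both genes stood higher than in K2. Whether other cells in the libraries enter these values was not tested. The study chose these genes on these samples, so their direction is not independent evidence.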

How the data were processed

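The authors mapped CHIP-seq and ATAC-seq reads with HISAT2 on mm39 and took out duplicate reads. Peaks came from Macs2, those of duplicates were joined where they overlapped by 50% or more, and featureCounts gave the reads in the final list. What was deposited is TPM at 6971 CHIP and 81800 ATAC peaks and per gene for RNA-seq. The methods give an average sequencing depth for ATAC-seq, but the reads behind each ATAC value are unknown.

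CHIP reads were recovered as whole multiples of a step per read, with width taken as end minus start. All 6971 peaks came out whole within the rounding of the values in both mice. Overlaps of at least 1 bp were computed with numpy 2.4.6 and checked with bedtools 2.31.1. Tables were handled with pandas 2.3.3 and scipy 1.17.1. Recovery and overlap were tested on simulated data. CHIP values were compared as log2(TPM + 1) and ATAC values as log2(TPM + 0.84). No test was run over peaks, which are not replicates, and where nothing says that samples came from separate experiments, spread may be technical.

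Peaks named are the 10 strongest, the 5 widest, the 5 with the largest ratio between mice, those at 0, those nearest to and farthest from ATAC peaks, the closest pair, and those assigned to genes by the study. The members, lists and rules were chosen with earlier results of these data known. The genome used here was GRCm38, past whose ends the peaks of 4 chromosomes reach, so sequences and gene positions of these peaks were not analysed here.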

Additional observations from a re-analysis of the deposited data

Results flagged for a closer look

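On chromosomes X and Y, which the comparisons leave out, 57 of 183 CHD8 peaks or 31.1% shared no base with an ATAC peak, and 56 of these had more than 3 reads, the limit that a count of 0 allows. Their medians were 109.3 TPM in 1G and 90.3 TPM in 2G, against 123.2 and 115.7 TPM for the peaks of these chromosomes that share bases with an ATAC peak. These medians are mainly those of X, which held 54 of the 57 peaks. On Y the order was reversed. There 3 of 10 CHD8 peaks lay outside, with medians of 254.8 and 224 TPM, against 27.5 and 20.3 TPM for those sharing bases. Both mice had values at the Y peaks, although the study lists a male and a female for CHIP-seq. Whether these reads come from Y, and whether the listed sexes hold, was not tested. The peaks of X and Y were singled out because they hold reads outside the main comparison.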

How the results depend on the processing

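Of 35 alternatives, 28 left the value within its spread or interval and 7 moved it, and none of the signed differences changed sign. The excess of higher ATAC peaks near these CHD8 peaks over all ATAC peaks did turn with the larger value added. That value shrinks changes at weak ATAC peaks most, so this turn does not settle the excess. The number of peaks outside open chromatin was 957 to 1181. The signal difference was -0.43 to -0.22 on the log2 scale when a mouse was left out, and the share of higher nearest ATAC peaks was 27.7% to 27.9% when a Chd8-/- mouse was left out, against 17.5% and 19% of all ATAC peaks. The share of peaks that differed 1.5-fold between mice was 14.5% with 10 TPM added to each value, against 9.22% of the other peaks, and 12.1% against 11.1% with ratios centred on the median of the set (chosen after the data were seen), and 2.65% differed 2-fold, against 0.953% of the other peaks. Within 50 kb, 27.3% had another CHD8 peak. The median gap to an ATAC peak was 18697 bp when peaks covered to less than 50% counted as outside, since these have a gap of 0. The share of higher nearest ATAC peaks was 2.77% with the median added and 5.11% at a log2 cutoff of 1, where all ATAC peaks had 3.29% and 2.51%. No paired analysis was possible because the CHIP comparison lies within each mouse, ATAC has 1 WT mouse, and no test was run on RNA. The planned comparisons of sequence, gene position and RNA at gene starts, with their alternatives, were not run, for want of a genome in mm39. Depth limits the 60 peaks with fewer than 20 reads in a mouse.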
